A study of Homo sapiens with 2 samples.

Results

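TTYH1, EEF1A2, SYCE3, PCOTH, GNG10, CDC42EP5 and BASP1 are 7 of the 36601 genes in a single-cell RNA sequencing matrix of PC9, a line of human lung adenocarcinoma cells, that carried CRISPR single guide RNAs (sgRNAs). They were chosen by their measured values in cells with sgRNAs against CTCF. Those values are therefore given as a description with no test, and tests were made only with sgRNAs of the other targets. Cells with CTCF, ATF4, PGAM1, MYC, CTNNB1 or JUN sgRNAs were set against cells with Non-Targeting sgRNAs of the same culture. All groups shared lentiviral delivery with polybrene at 8 ug/ml, an infection rate near 40% and selection with puromycin at 1 ug/ml. The labels name day 8 for the experiment and day 7 for a first harvest, and speak both of knockout and of dCas9, which binds without cutting, so the day and the kind of perturbation are uncertain. A single sgRNA was assigned to 5556 of 10142 cells. These included 1182 with CTCF, 859 with ATF4, 333 with PGAM1, 94 with MYC, 1552 with CTNNB1 and 836 with JUN sgRNAs, and 700 with Non-Targeting sgRNAs.

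The unit of every comparison was the sgRNA: the counts of unique molecular identifiers (UMIs) of its cells were summed, and 34 sgRNAs with at least 20 cells were used. Levels are CPM, a gene's counts scaled to a common total of gene UMIs. The sums held 267726 to 6430143 UMIs, and the median cell held 9654 to 13829 UMIs and 8.52 to 11.4% mitochondrial UMIs, depending on the sgRNA. The 6 CTCF sgRNAs were carried by 344, 216, 48, 247, 213 and 114 cells, in order of their numbers, so sgRNA 3 gave the smallest sum, of 624734 UMIs. No barcode occurred more than once. The sgRNAs shared 1 pool and 1 culture, so p-values measure the spread between sgRNAs only, which may be technical. Epithelial markers were present, with summed levels of 9023 to 11516 CPM with CTCF, 8722 to 13787 CPM with the other targets' and 10778 to 12214 CPM with Non-Targeting sgRNAs. Fibroblast, leukocyte and neural markers stayed at or below 4.80 CPM in sum with every sgRNA, and COL1A2, DCN, LUM, HBB, CHGA and NEUROD1 were at 0.

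CTCF is a zinc-finger protein that binds DNA at specific sites, halts the cohesin complex there and so shapes chromatin loops, and its binding is sensitive to methylation of CpG dinucleotides. The 7 genes have no common pathway. SYCE3 is part of the synaptonemal complex, which joins chromosomes in meiosis. PCOTH is a long non-coding RNA gene in the RefSeq annotation. TTYH1 encodes a membrane protein found mainly in the nervous system, and GNG10 a gamma subunit of heterotrimeric G proteins. EEF1A2 is the translation elongation factor isoform typical of neurons and muscle, CDC42EP5 an effector of the small GTPase CDC42 that acts on the cytoskeleton, and BASP1 a membrane-attached protein of nerve endings that also acts as a transcriptional corepressor.

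The genes lie on 6 chromosomes (positions from RefSeq, build GRCh38.p14, the same build as the hg38 of the submitters' processing notes). TTYH1 (ENSG00000167614) is at chromosome 19, 54415464 to 54436904, and CDC42EP5 (ENSG00000167617) at chromosome 19, 54465026 to 54473296. EEF1A2 (ENSG00000101210) is at chromosome 20, 63488014 to 63499083, SYCE3 (ENSG00000217442) at chromosome 22, 50551112 to 50562919, and PCOTH (ENSG00000205861) at chromosome 13, 23888868 to 23892103. GNG10 (ENSG00000242616) is at chromosome 9, 111661605 to 111670226, and BASP1 (ENSG00000176788) at chromosome 5, 17216823 to 17276834. PCOTH overlaps MIPEP and C1QTNF9B, BASP1 overlaps BASP1-AS1, and GNG10 is part of the readthrough gene DNAJC25-GNG10. It is not stated whether counting used the strand, so reads of PCOTH, BASP1 and GNG10 could come from these partners. C1QTNF9B had 1 UMI with all CTCF sgRNAs and 0 with all Non-Targeting sgRNAs. BASP1-AS1 had at most 1 UMI with any of these sgRNAs. DNAJC25 measured 9.04 to 16.0 CPM with CTCF and 8.79 to 13.5 CPM with Non-Targeting sgRNAs. The part of the partners in the reads was not tested.

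Promoter windows of 300 bases, from 250 before to 50 after the start of transcription, were found in RefSeq for 5 of the 7 genes, and EEF1A2 and CDC42EP5 are named only. The windows of the 3 genes with the largest fold changes are shown 5′ to 3′, in lower case with each CpG in capitals. They are chr19:54415214-54415513 on the plus strand for TTYH1, chr22:50562870-50563169 on the minus strand for SYCE3, and chr13:23888618-23888917 on the plus strand for PCOTH.
TTYH1: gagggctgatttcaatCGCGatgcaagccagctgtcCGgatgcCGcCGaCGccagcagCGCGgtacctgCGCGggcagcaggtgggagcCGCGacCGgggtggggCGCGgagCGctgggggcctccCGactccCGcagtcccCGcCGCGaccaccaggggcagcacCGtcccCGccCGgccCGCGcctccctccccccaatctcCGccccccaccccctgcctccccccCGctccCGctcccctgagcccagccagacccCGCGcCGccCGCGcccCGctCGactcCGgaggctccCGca
SYCE3: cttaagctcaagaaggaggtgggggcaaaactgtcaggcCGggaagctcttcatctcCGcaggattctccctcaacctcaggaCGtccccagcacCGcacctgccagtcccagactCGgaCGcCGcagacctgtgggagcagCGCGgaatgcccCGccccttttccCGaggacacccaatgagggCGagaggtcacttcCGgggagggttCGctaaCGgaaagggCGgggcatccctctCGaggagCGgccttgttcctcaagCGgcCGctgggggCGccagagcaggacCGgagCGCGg
PCOTH: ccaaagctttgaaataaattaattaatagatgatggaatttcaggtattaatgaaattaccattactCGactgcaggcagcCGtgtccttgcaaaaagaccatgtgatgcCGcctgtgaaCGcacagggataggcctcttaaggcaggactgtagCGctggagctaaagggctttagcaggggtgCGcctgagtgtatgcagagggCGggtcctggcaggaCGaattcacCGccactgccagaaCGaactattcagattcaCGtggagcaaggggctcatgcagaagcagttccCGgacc
The TTYH1 window held 38 CpG, more than 90.1% of all 35114 promoter windows of this length. SYCE3 had 24 CpG and the PCOTH window at the gene start 12, against a median of 14 over all windows. GNG10 had 35 and BASP1 had 27. None of the 6 windows of the 5 genes matched the CTCF core motif, searched by its 12 positions on both strands with up to 1 mismatch, and 4.94% of all windows held a match. The absence of a match concerns these letters in these windows alone.

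The targeted transcript was measured first. CTCF (ENSG00000102974) stood at 41.4, 33.0, 20.8, 41.9, 36.2 and 34.6 CPM with CTCF sgRNAs 1 to 6, against 42.1, 47.6, 40.8 and 35.6 CPM with Non-Targeting sgRNAs 1 to 4. The groups overlapped, and the value with sgRNA 3 was the lowest, from 13 UMIs. The log2 fold change of -0.18 ± 0.11 (SE) did not pass the test (edgeR quasi-likelihood, Benjamini-Hochberg adjusted p = 0.88). A knockout need not lower the transcript, whereas a knockdown with dCas9 would. The labels leave the kind of perturbation uncertain, so whether the sgRNAs acted cannot be told from this value.

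SYCE3 and PCOTH, near the detection limit with Non-Targeting sgRNAs, had the largest fold changes of the 7 genes. SYCE3 measured 1.78, 22.6, 131, 12.9, 1.88 and 2.83 CPM with CTCF sgRNAs 1 to 6, against 1.03, 2.46, 0.50 and 3.85 CPM with Non-Targeting sgRNAs 1 to 4. Values with sgRNAs 2, 3 and 4 lay above every Non-Targeting value, and those with sgRNAs 1, 5 and 6 lay within the Non-Targeting range. The mean was 28.9 ± 50.8 CPM (SD, n = 6) with CTCF sgRNAs and 1.96 ± 1.51 CPM (n = 4) with Non-Targeting sgRNAs. In summed counts, 201 UMIs against 14 gave a ratio of 8.54 (exact 95% interval 4.97 to 15.9, counting error only). sgRNA 3 supplied 40.8% of the CTCF counts from 48 cells, and the ratio without it was 5.28. The fitted log2 fold change was 3.19 ± 0.72 (SE), and 2.37 without sgRNA 3.

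PCOTH, the non-coding gene, measured 1.11, 6.31, 30.4, 2.84, 3.01 and 0.71 CPM with CTCF sgRNAs 1 to 6, against 0.52, 0, 0.50 and 0 CPM with Non-Targeting sgRNAs 1 to 4. All 6 CTCF values lay above all 4 Non-Targeting values, but the lowest rested on 1 UMI. The 4 Non-Targeting sgRNAs held 3 UMIs in all, against 59 with CTCF sgRNAs, a ratio of 11.7 with a wide counting interval of 3.81 to 58.4. Without sgRNA 3, which held 32.2% of the CTCF counts, the ratio was 8.28. MIPEP, which overlaps PCOTH, had 1.60 CPM with sgRNA 3, the lowest of the CTCF sgRNAs, but from 1 UMI. The other CTCF sgRNAs gave 7.54 to 8.48 CPM of MIPEP, all above the 3.93 to 6.74 CPM of the Non-Targeting sgRNAs. MIPEP was thus higher with every CTCF sgRNA except sgRNA 3. The log2 fold change of MIPEP, 0.44 ± 0.24 (SE), did not pass the edgeR test (adjusted p = 0.85). Its part in the PCOTH reads was not tested.

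Both genes passed the filter on low counts, 5.25 CPM in at least 2 sgRNAs, only through CTCF sgRNAs: 3 for SYCE3 and 2 for PCOTH, and none of the other 28 sgRNAs. The other 5 genes passed through sgRNAs of every kind.

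TTYH1, the membrane protein of the nervous system, measured 26.5, 49.0, 107, 35.6, 29.8 and 31.8 CPM with CTCF sgRNAs 1 to 6, against 17.1, 20.6, 17.9 and 22.2 CPM with Non-Targeting sgRNAs 1 to 4. The groups did not overlap: the lowest CTCF value, with sgRNA 1, was above the highest Non-Targeting value. Their means were 46.7 ± 30.7 CPM (SD, n = 6) with CTCF and 19.4 ± 2.37 CPM (n = 4) with Non-Targeting sgRNAs, and the log2 fold change was 1.01 ± 0.18 (SE). sgRNA 3 supplied 12.1% of the CTCF counts. The ratio of the summed counts was 1.98 with it and 1.81 without it, and the log2 fold change without it was 0.86.

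GNG10, the G protein subunit, measured 211, 248, 346, 235, 197 and 212 CPM with CTCF sgRNAs 1 to 6, against 195, 180.2, 187 and 189 CPM with Non-Targeting sgRNAs 1 to 4. Again the groups did not overlap, but sgRNA 5 lay only just above the highest Non-Targeting value. The log2 fold change was 0.29 ± 0.071 (SE), the smallest in size of the 7 genes.

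3 genes were lower with CTCF sgRNAs. EEF1A2, the elongation factor, measured 394, 221, 186, 281, 368 and 375 CPM with CTCF sgRNAs 1 to 6, against 426, 420.3, 401 and 379 CPM with Non-Targeting sgRNAs 1 to 4. The values with sgRNAs 2, 3 and 4 lay well below the Non-Targeting range, those with sgRNAs 5 and 6 just below it, and that with sgRNA 1 within it. The means were 304 ± 88.0 CPM (SD, n = 6) with CTCF and 406 ± 21.4 CPM (n = 4) with Non-Targeting sgRNAs, and the log2 fold change was -0.37 ± 0.079 (SE).

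CDC42EP5, the CDC42 effector, measured 98.5, 73.5, 56.0, 88.2, 99.8 and 87.6 CPM with CTCF sgRNAs 1 to 6, against 109, 101, 123 and 114 CPM with Non-Targeting sgRNAs 1 to 4. All CTCF values were below all Non-Targeting values, with the highest CTCF value, that of sgRNA 5, close to the lowest Non-Targeting one. Its log2 fold change was -0.33 ± 0.080 (SE).

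BASP1, the corepressor, measured 81.8, 71.6, 32.0, 83.2, 92.7 and 120.1 CPM with CTCF sgRNAs 1 to 6, against 116, 103, 111 and 111 CPM with Non-Targeting sgRNAs 1 to 4. The first 5 CTCF sgRNAs lay below the Non-Targeting range, and sgRNA 6 lay above it. The log2 fold change was -0.40 ± 0.099 (SE), and the value with sgRNA 3 rested on 20 UMIs.

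Of the 7 genes, 3 (TTYH1, PCOTH and GNG10) had every CTCF sgRNA above every Non-Targeting sgRNA, and 1 (CDC42EP5) had every one below. Over the 11570 genes tested, 0.787% lay wholly above and 0.631% wholly below. The edgeR test called 3 genes (0.0259%) with CTCF sgRNAs. That count was 24, 0, 6, 8 and 12 without CTCF sgRNAs 1, 2, 3, 5 and 6, and 0 and 1 without Non-Targeting sgRNAs 1 and 2. The members were chosen from this contrast, so nothing is read from these shares.

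**Figure D1:**
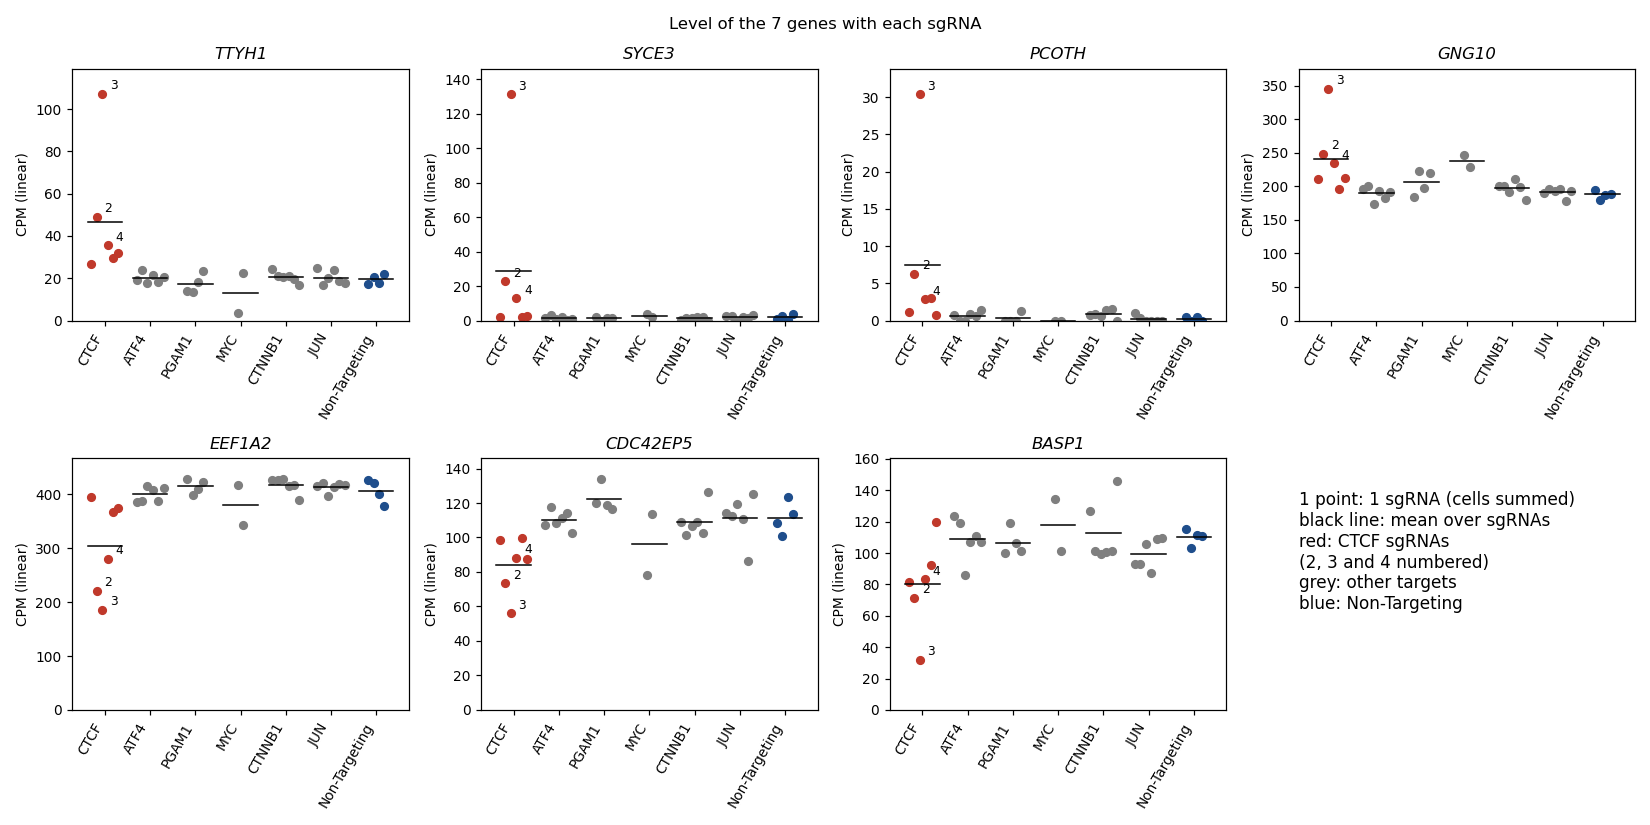
Level of each gene in CPM (vertical axes, linear, starting at 0) with each sgRNA, grouped by target along the horizontal axes, with 1 point for each sgRNA and black lines for group means. CTCF sgRNA 3 lies at 107 CPM for TTYH1, 131 CPM for SYCE3 and 32.0 CPM for BASP1, outside all sgRNAs of the other targets and the Non-Targeting sgRNAs in every panel.

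The same 2 CTCF sgRNAs stood farthest from the Non-Targeting level for every gene. sgRNA 3 gave the value farthest in the direction of the group's change for all 7 genes, and sgRNA 2 the second farthest for all 7. The genes were chosen from these values. How often genes of all kinds show this order was not counted, so nothing is read from it. The log2 ratio to the Non-Targeting mean with sgRNA 3 was 6.07 for SYCE3, 6.91 for PCOTH, 2.46 for TTYH1, 0.88 for GNG10, -1.13 for EEF1A2, -0.99 for CDC42EP5 and -1.78 for BASP1. With sgRNA 2 it was 3.53 for SYCE3, 1.33 for TTYH1 and -0.88 for EEF1A2. sgRNAs 3 and 2 also had the lowest and second lowest levels of the CTCF transcript, 20.8 CPM (exact 95% Poisson interval 11.1 to 35.6) and 33.0 CPM (26.5 to 40.6), and both intervals overlapped those of other CTCF sgRNAs. Among genes of all kinds, sgRNA 3 lay above all 28 sgRNAs of the other targets and controls for 12.5% of the genes tested, and below all 28 for another 12.5%. For the 7 members it lay outside all 28 in every case, which the choice of members favours. The part of its small sum of UMIs in these values was not tested.

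**Figure D2:**
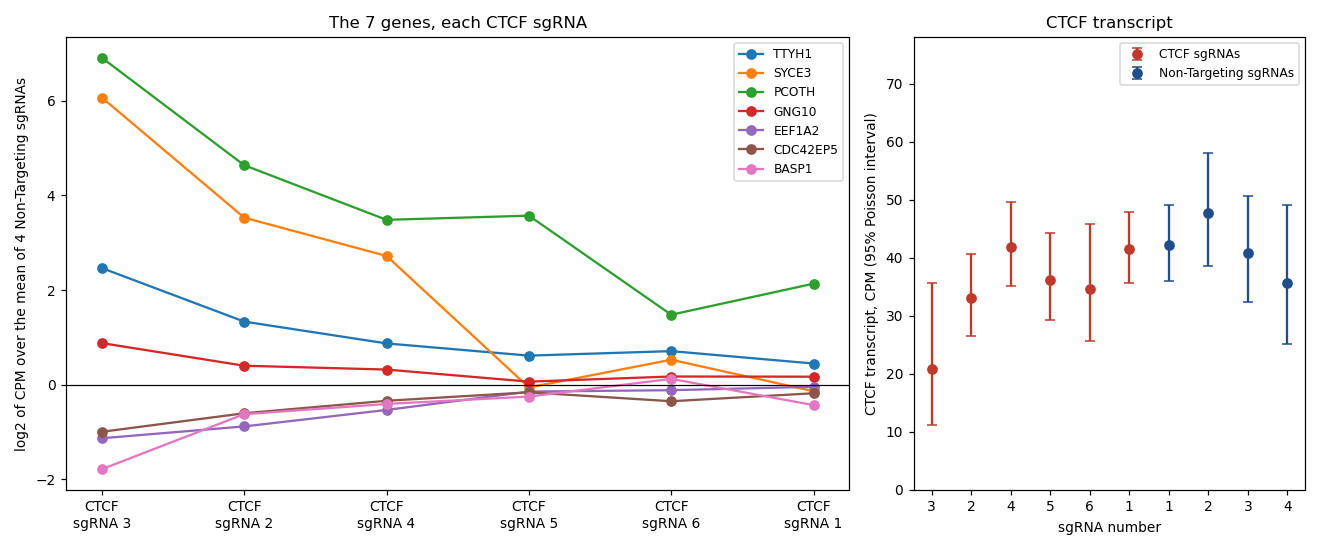
Left, log2 of the CPM with each CTCF sgRNA over the mean of the 4 Non-Targeting sgRNAs (vertical axis) for the 7 genes, with the sgRNAs along the horizontal axis and lines joining the points of 1 gene; right, CPM of the CTCF transcript with exact 95% Poisson intervals. sgRNA 3 and then sgRNA 2 lie farthest from 0 for each gene in the direction of its change, and sgRNA 3 has the lowest CTCF transcript, 20.8 CPM.

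Shares of cells with at least 1 UMI were compared after thinning every cell to 5000 gene UMIs, which left 1168 CTCF and 691 Non-Targeting cells. The median depth before thinning was 11962 UMIs in CTCF cells and 12110.5 in Non-Targeting cells. SYCE3 was found in 0.58, 9.30, 48.9, 5.35, 0.48 and 2.68% of cells with CTCF sgRNAs 1 to 6, against 0.34, 0, 0 and 1.30% of cells with Non-Targeting sgRNAs 1 to 4. With sgRNA 3 this was 22 of 45 thinned cells (exact 95% binomial interval 33.7 to 64.2%), and 33 of 48 cells (68.8%) without thinning. The 0 of 161 and 0 of 158 Non-Targeting cells allow shares of up to 2.27 and 2.31% by their exact intervals. SYCE3 was thus detected in a large part of the cells with sgRNA 3 and in few cells with any other sgRNA. No cell type that lacks SYCE3 was measured in this single line, so free RNA and low expression cannot be told apart in the Non-Targeting shares.

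TTYH1 was found in 12.8, 19.1, 42.2, 16.5, 12.4 and 14.3% of thinned cells with CTCF sgRNAs 1 to 6, against 10.2, 10.6, 6.96 and 11.7% with Non-Targeting sgRNAs 1 to 4. Without thinning, TTYH1 was found in 30.8% of all CTCF cells and 20.1% of Non-Targeting cells. PCOTH reached 13.3% of thinned cells with sgRNA 3 and 3.26% with sgRNA 2, against 0.68% with Non-Targeting sgRNA 1 and 0% with the other 3. The difference between the means over sgRNAs was 9.70 percentage points for TTYH1, 10.8 for SYCE3 and 3.23 for PCOTH. Without CTCF sgRNA 3 these were 5.16, 3.27 and 1.24 points, so sgRNA 3 carried much of each.

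EEF1A2 was found in 84.6, 56.3, 55.6, 71.2, 85.6 and 86.6% of thinned cells with CTCF sgRNAs 1 to 6, against 85.4, 87.0, 82.3 and 84.4% with Non-Targeting sgRNAs 1 to 4. The shares with sgRNAs 2, 3 and 4 were below all Non-Targeting shares, and those with the other 3 CTCF sgRNAs were not. CDC42EP5 ranged from 20 (sgRNA 3) to 39.1% (sgRNA 4) with CTCF sgRNAs, against 37.7 to 43.7% with Non-Targeting sgRNAs. BASP1 ranged from 17.8 (sgRNA 3) to 41.1% (sgRNA 6), against 33.5 to 38.6%. GNG10 was found in 63.8 to 77.8% of CTCF cells, against 49.4 to 61.4% of Non-Targeting cells, and without thinning in 90.5% of all CTCF and 87.1% of all Non-Targeting cells. Without thinning, EEF1A2 was found in 93.6% of all CTCF and 96.9% of all Non-Targeting cells, and CDC42EP5 in 60.6% of CTCF and 68.1% of Non-Targeting cells. BASP1 was found in 53.8% of CTCF and 62% of Non-Targeting cells, SYCE3 in 8.54% of CTCF and 1.86% of Non-Targeting cells, and PCOTH in 4.48% of CTCF and 0.43% of Non-Targeting cells.

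**Figure D3:**
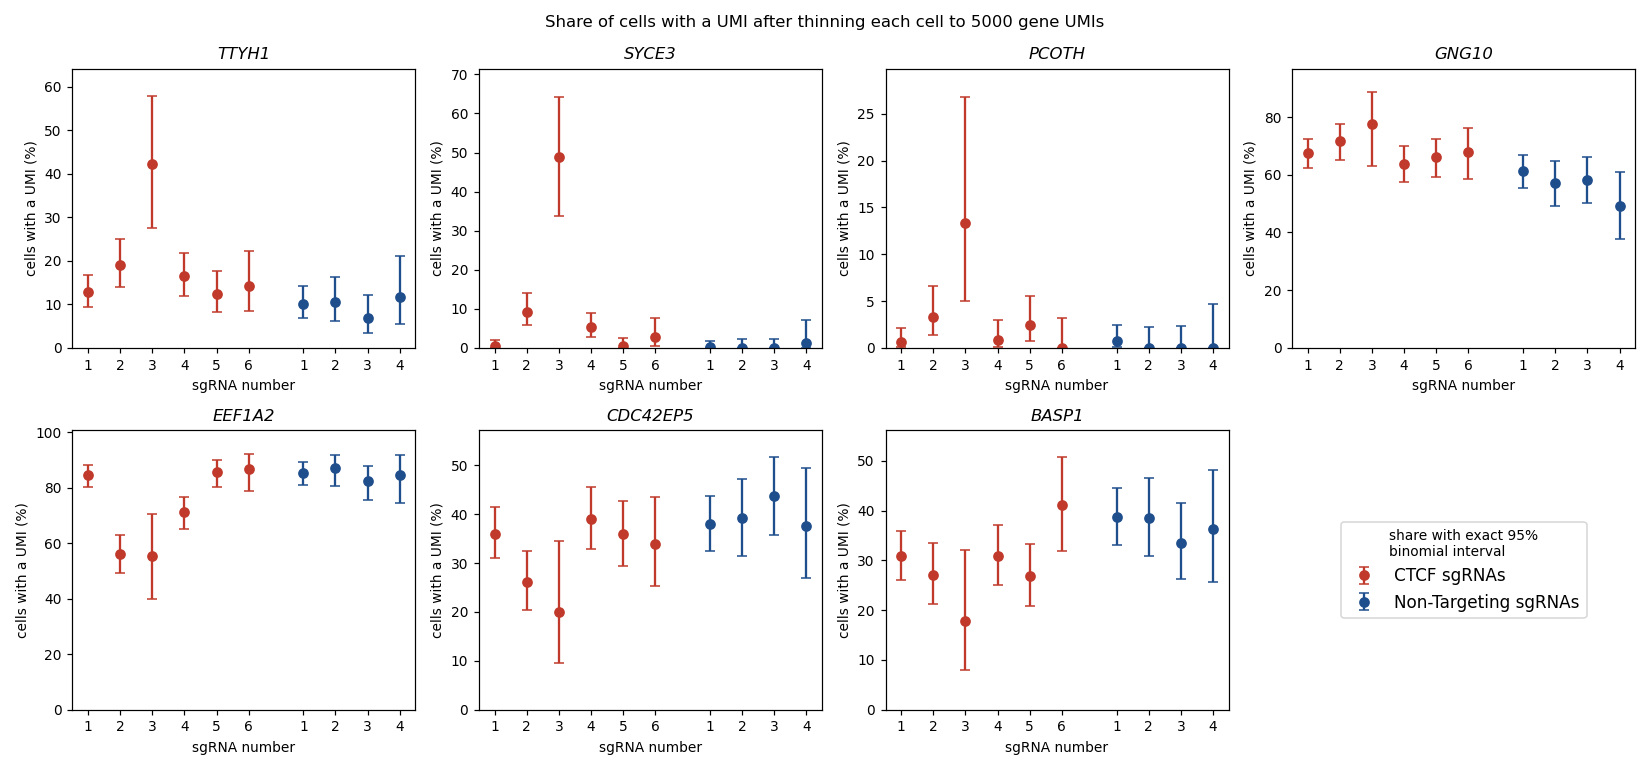
Share of cells with at least 1 UMI of each gene after thinning to 5000 gene UMIs (vertical axes, percent, starting at 0, with exact 95% binomial intervals) for each CTCF sgRNA and then each Non-Targeting sgRNA (horizontal axes). With CTCF sgRNA 3 the share reaches 48.9% for SYCE3 and 42.2% for TTYH1, and is 17.8% for BASP1.

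With CTCF sgRNA 2, the counting intervals of several of the genes did not overlap between cells with and without a SYCE3 UMI. The genes, SYCE3 included, were chosen from values in cells with CTCF sgRNAs, which can favour such differences. Poisson intervals leave out the spread between cells, so these values are given as a description with no test. Of the 216 cells with CTCF sgRNA 2, 32 held a SYCE3 UMI. TTYH1 stood at 128 CPM (95% Poisson interval 95.1 to 169) in those 32 cells and at 35.6 CPM (28.3 to 44.2) in the 184 without. PCOTH stood at 25.6 CPM (12.3 to 47.1) in cells with and 3.04 CPM (1.22 to 6.26) in cells without. EEF1A2 was lower in cells with a SYCE3 UMI, at 131 CPM (97.3 to 172), than in cells without, at 236 CPM (217 to 257). GNG10 stood at 320.4 CPM (267 to 382) in cells with and 236 CPM (217 to 257) in cells without, while the intervals overlapped for CDC42EP5 and BASP1. With sgRNA 2 the median depth was 11133 UMIs in cells with and 11733 in cells without, so its cells with a SYCE3 UMI were not deeper. Cells with a SYCE3 UMI were few with sgRNAs 1 and 5, and there they were deeper. Their medians were 15356 against 12456 UMIs with sgRNA 1 and 21054.5 against 11654 UMIs with sgRNA 5. They were less deep with all the remaining CTCF sgRNAs. The part of depth in these differences was not tested.

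With sgRNA 4, the 22 cells with a SYCE3 UMI had 159 CPM of EEF1A2 (117 to 212), against 293 CPM (274 to 314) in the 225 without. GNG10 stood at 329 CPM (267 to 401) in cells with and 225 CPM (208 to 243) in cells without, and the TTYH1 intervals overlapped. With sgRNA 3, 33 of 48 cells held a SYCE3 UMI and 15 did not, and the intervals of all the other genes overlapped. TTYH1 was at 118 CPM (87.3 to 155) in cells with and 85.1 CPM (49.6 to 136) in cells without. EEF1A2 was at 179 CPM (141 to 224) in cells with and 200.3 CPM (143 to 273) in cells without. A split by a TTYH1 UMI separated fewer genes. With sgRNA 2, SYCE3 stood at 38.04 CPM (26.8 to 52.4) in the 74 cells with a TTYH1 UMI and 13.9 CPM (8.93 to 20.7) in the 142 without, while the intervals of the other 5 genes overlapped, with EEF1A2 at 196 CPM (169.5 to 226) in cells with and 235 CPM (212 to 259) in cells without. With sgRNA 4, SYCE3 stood at 12.03 CPM (6.22 to 21.0) in cells with a TTYH1 UMI and 13.3 CPM (8.92 to 19.1) in cells without. Cells with a TTYH1 UMI were deeper than cells without for sgRNA 2, at medians of 12270 against 11453 UMIs. For sgRNA 4 they were less deep, at 11547.5 against 12021 UMIs. These intervals cover counting error in the cells of 1 sgRNA and compare cells, not conditions.

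**Figure D4:**
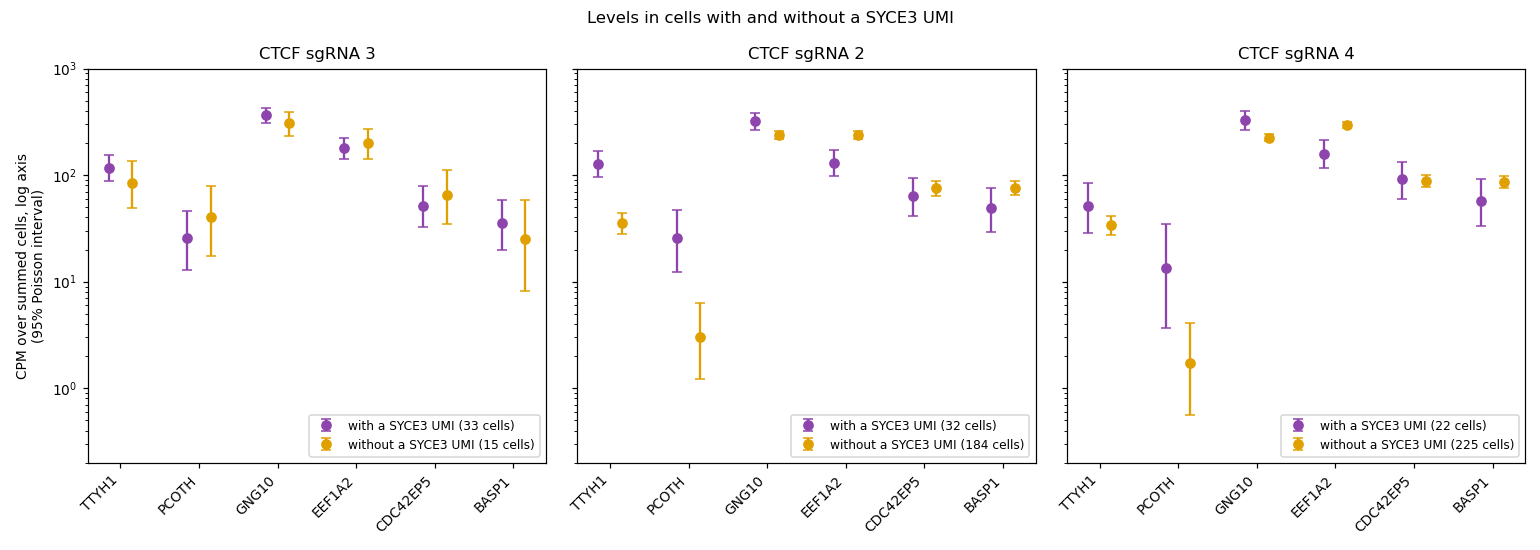
CPM of the other 6 genes (vertical axis, log scale, with 95% Poisson intervals) in cells with a SYCE3 UMI and in cells without, for CTCF sgRNAs 3, 2 and 4. TTYH1 is at 128 CPM against 35.6 CPM with sgRNA 2, while with sgRNA 3 the intervals of all 6 genes overlap.

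Cells whose sgRNA had only 1 to 4 UMIs were left out of the sums above and give a second set of cells, though they may have entered the choice of members. There were 329 such cells for CTCF and 172 for Non-Targeting sgRNAs. In the 27 cells of CTCF sgRNA 3, SYCE3 stood at 99.7 CPM (13 cells with a UMI), PCOTH at 36.9 CPM, TTYH1 at 48.0 CPM and EEF1A2 at 192 CPM. Over the 172 Non-Targeting cells, SYCE3 stood at 1.95 CPM, PCOTH at 0.98 CPM, TTYH1 at 19.03 CPM and EEF1A2 at 402 CPM. With sgRNA 3, TTYH1 was lower than in the assigned cells, with intervals that did not overlap (25.6 to 82.1 CPM, against 83.1 to 136 CPM in the assigned cells). GNG10 with sgRNA 3 stood at 251 CPM, CDC42EP5 at 88.6 CPM and BASP1 at 51.7 CPM, against 346, 56.0 and 32.0 CPM in the assigned cells, and their intervals overlapped, as did those of SYCE3, PCOTH and EEF1A2. Over all 329 CTCF cells, BASP1 was at 97.0 CPM against 93.2 CPM with Non-Targeting sgRNAs, GNG10 at 217 against 207 CPM and CDC42EP5 at 89.9 against 94.2 CPM, each with overlapping counting intervals. TTYH1, at 28.9 against 19.03 CPM, and PCOTH, at 2.89 against 0.98 CPM, overlapped too. SYCE3, at 10.5 against 1.95 CPM, and EEF1A2, at 352 against 402 CPM, did not. By sgRNA, TTYH1 lay within the Non-Targeting range of 11.2 to 26.8 CPM with CTCF sgRNAs 5 and 6, and above it with 1, 2, 3 and 4. PCOTH had 0 UMIs with CTCF sgRNAs 1, 2, 4 and 6. SYCE3 stood at 12.2 CPM with CTCF sgRNA 2 and 2.84 CPM with sgRNA 4.

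The 7 genes were then tested with the sgRNAs of the other 5 targets, whose values the choice did not use, although their Non-Targeting controls are those of the CTCF contrast. SYCE3 and PCOTH entered the fit only through CTCF sgRNAs and were too low with the other targets for a test to tell much, so their levels are given below as values. For the other 5 genes, none of the 25 pairs of gene and target passed the edgeR test (adjusted p between 0.63 and 1.0), none of the 23 to which DESeq2 gave an adjusted p passed with it, and 1 had an unadjusted p below 0.05 in edgeR. The test called 1.75% of all genes with ATF4, 0.389% with PGAM1, 0.277% with MYC, 0.00864% with CTNNB1 and 0.00864% with JUN sgRNAs, and the unadjusted p was below 0.05 for 12.4, 8.72, 7.83, 4.3 and 4.63% of genes, in the same order of targets. The 25 log2 fold changes lay between -0.25 and 0.30.

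The smallest p, a pair singled out once its values were known, was that of GNG10 with MYC sgRNAs, at 247 and 229 CPM with the 2 tested MYC sgRNAs, against 180.2 to 195 CPM with Non-Targeting sgRNAs. Both MYC values lay above all Non-Targeting values, and the log2 fold change of 0.30 ± 0.15 (SE) did not pass (edgeR adjusted p = 0.63). BASP1 with JUN sgRNAs, next in order, had 99.7 ± 9.65 CPM (SD, n = 6) with JUN and 110.2 ± 5.17 CPM (n = 4) with Non-Targeting sgRNAs (log2 fold change -0.20 ± 0.10, edgeR adjusted p = 1.0). The 95% interval of that log2 fold change, -0.3983 to 0.0016, ends just short of the value with CTCF sgRNAs, -0.3999.

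SYCE3 ranged from 0 to 3.74 CPM over the 24 sgRNAs of the other targets, with a median of 1.58 CPM, against 0.50 to 3.85 CPM with Non-Targeting sgRNAs. PCOTH was at 0 with 12 of the 24 sgRNAs and at most at 1.56 CPM. TTYH1 ranged from 3.74 CPM, with a MYC sgRNA of few UMIs, to 25.02 CPM, with a median of 19.8 CPM, against 17.1 to 22.2 CPM with Non-Targeting sgRNAs. All 6 CTCF sgRNAs lay above all 28 other sgRNAs for TTYH1, and 4 did for PCOTH, 3 for SYCE3 and 2 for GNG10. Likewise 4 lay below all 28 for BASP1, 3 for EEF1A2 and 2 for CDC42EP5. The choice of members favours such counts, and the share of all genes lying outside all 28 was counted for sgRNA 3 alone. SYCE3 and PCOTH also passed the low-count filter only through CTCF sgRNAs. Nothing is read from these counts. EEF1A2 was at 343 to 429 CPM with the sgRNAs of the other targets, with a median of 416 CPM.

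TTYH1 and CDC42EP5, whose values lay on opposite sides of the Non-Targeting level, lie on the same chromosome, 28.1 kb apart from the end of TTYH1 to the start of CDC42EP5. Between them lie LENG8-AS1, LENG8 and LENG9, whose log2 fold changes with CTCF sgRNAs were 0.49 ± 0.18, 0.14 ± 0.085 and 0.26 ± 0.14 (SE), none of which passed the edgeR test (adjusted p = 0.73, 0.87 and 0.85). LENG8-AS1 had 11.6, 17.1, 11.2, 14.2, 17.0 and 12.01 CPM with CTCF sgRNAs 1 to 6, against 9.04, 12.8, 8.45 and 11.6 CPM with Non-Targeting sgRNAs 1 to 4. Its groups overlapped, and its value with sgRNA 3 was the lowest of the 6, unlike that of TTYH1. Of the 63 tested genes nearest to the 7 members, 5 on each side, none was called and 4 had an unadjusted p below 0.05, against 0.0259% called and 6.23% below 0.05 of all genes. Their median log2 fold change was 0.044, against 0.0038 over all genes tested, and their median absolute value 0.12, against 0.10. These neighbours were taken at any distance. Starts lay as far as 15010 kb from that of BASP1 (MTMR12), -2735 kb from that of PCOTH (SKA3) and -2286 kb from that of GNG10 (PTPN3). The values thus do not describe close surroundings alone.

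**Figure D5:**
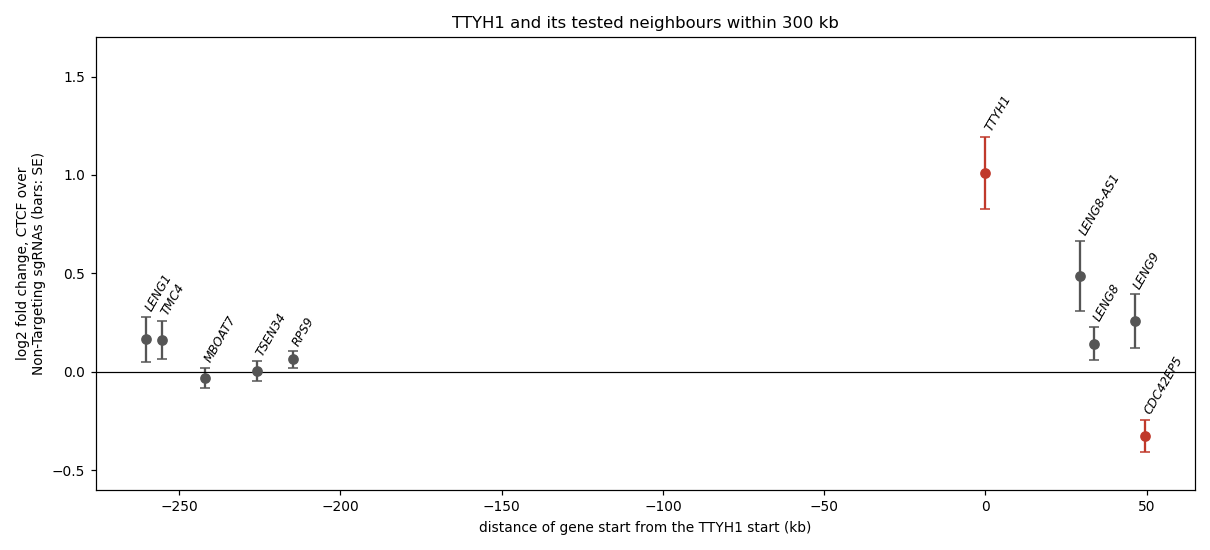
Log2 fold change with CTCF over Non-Targeting sgRNAs (vertical axis, bars of 1 SE) for TTYH1 and the tested genes within 300 kb, by distance from the TTYH1 start in kb (horizontal axis). TTYH1 lies at 1.01 and CDC42EP5 at -0.33, with LENG8-AS1, LENG8 and LENG9 between them at 0.49, 0.14 and 0.26.

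Relatives of the 7 genes, and genes of related function, were listed beside them. Only 0.0259% of all genes were called with CTCF sgRNAs, so a count of 0 called in lists of this size does not set them apart from other genes. Of 26 relatives, 16 passed the low-count filter, none was called, and 1 had an unadjusted p below 0.05, against 6.23% of all genes. Their median log2 fold change was -0.0035, against 0.0038 over all genes tested. EEF1A1, the isoform of EEF1A2 that most cells use, stood at 7229 ± 408 CPM (SD, n = 6) with CTCF and 6938 ± 146 CPM (n = 4) with Non-Targeting sgRNAs (log2 fold change 0.061 ± 0.038, edgeR adjusted p = 0.88). TTYH3 (-0.032), the effectors CDC42EP1 to CDC42EP4 (-0.20 to 0.066) and the BASP1 relatives MARCKS (-0.028) and MARCKSL1 (0.082) did not pass either. Of 13 G protein alpha and beta subunits, 11 were tested and none was called (median 0.044). Among 22 meiosis genes, 3 were expressed enough to test, and none was called. SYCE2, the partner of SYCE3 in the synaptonemal complex, was at 2.94 ± 1.40 CPM with CTCF and 4.10 ± 1.43 CPM with Non-Targeting sgRNAs.

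Of 28 genes of neurons, 8 were tested and none was called, with a median log2 fold change of 0.098. NEFH, a neurofilament subunit, had the smallest p among them: 40.8, 63.8, 81.6, 46.6, 35.4 and 30.4 CPM with CTCF sgRNAs 1 to 6, against 30.5, 31.4, 38.3 and 29.9 CPM with Non-Targeting sgRNAs 1 to 4 (log2 fold change 0.51 ± 0.14, edgeR adjusted p = 0.19). Its highest values were again those of sgRNAs 3 and 2, and the groups overlapped. Of 70 genes of loci where CTCF is well studied (H19, IGF2, the clustered protocadherins and HOXA), 2 were expressed enough to test. For HOXA-AS2 the log2 fold change was 0.59 ± 0.20 (edgeR adjusted p = 0.63), and for HOXA10-AS 0.17 ± 0.14 (adjusted p = 0.92).

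For each of the 7 genes, the 3 genes with the most similar level over the 34 sgRNAs were taken among 7708 genes with a mean of at least 10 CPM, by Pearson's r of log2(CPM + 1). These r describe sgRNAs that share a culture and differ in depth, and all include sgRNA 3. SYCE3 and PCOTH were each close to STAG1, a cohesin subunit (r = 0.85 and 0.80), which stood at 14.9, 30.8, 62.4, 23.0, 19.2 and 15.5 CPM with CTCF sgRNAs 1 to 6, against 8.79, 9.82, 15.4 and 7.71 CPM with Non-Targeting sgRNAs 1 to 4. SYCE3 was also close to TMEM238 (0.87) and CST3, which encodes the protease inhibitor cystatin C (0.84), and PCOTH to PRDX2, a peroxiredoxin, and NEFH (both 0.79). GNG10 was closest to PRDX2 (0.87), CST3 (0.84) and C12orf57 (0.83), and TTYH1 to DHRS4L2, the splicing factor PRPF8 and RBM43 (all 0.83). CST3 stood at 1020 CPM with sgRNA 3, against 322 to 452 CPM over the 28 sgRNAs of the other targets and controls.

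EEF1A2 and BASP1 both had DMKN (0.90 and 0.85) and NMB, which encodes the peptide neuromedin B (0.85 and 0.86), among their 3 closest genes, with MZT2A (0.85) for EEF1A2 and MAL (0.85) for BASP1. DMKN, an epidermal secreted protein, measured 132, 83.5, 36.8, 93.2, 127 and 129 CPM with CTCF sgRNAs 1 to 6, against 118, 132, 156 and 134 CPM with Non-Targeting sgRNAs 1 to 4. NMB stood at 109 CPM with sgRNA 3, against 311 to 519 CPM over the 28 other sgRNAs. CDC42EP5 was closest to EHD2, a membrane-trafficking ATPase (0.83), SAAL1 (0.76) and DCAF13 (0.76).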

How the data were processed

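Both GEO samples, 1 library of captured sgRNAs and 1 of transcripts from the same cells, share 1 deposited matrix of raw counts, that is, whole-number counts of UMIs for each feature in each cell. Cell Ranger 6.1.2 produced it per the file headers. The submitters' processing notes name hg38, and how doublets were handled was not stated.

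Cells were kept (10142 of 10847) if they held 1000 or more gene UMIs, 500 or more genes and no more than 20% mitochondrial UMIs, and their depth ran from 1011 to 39824 gene UMIs (median 12239.5). A cell was assigned to an sgRNA with at least 5 UMIs and 80% of its sgRNA UMIs. No doublet caller was run. Counts were summed per sgRNA and compared in edgeR 4.0.16 (R 4.3.3; TMM, low-count filter, quasi-likelihood test, 1 fit for all targets, Benjamini-Hochberg adjustment within each contrast, threshold 0.05), with DESeq2 1.42.0 as an alternative. The biological coefficient of variation was 4.64%. Fold changes are target over Non-Targeting. The script was tested on simulated data. Exact Poisson and binomial intervals cover counting error only, while the interval of a log2 fold change rests on its SE in the edgeR fit. Reads from PCR are counted once per UMI.

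The 7 genes and the gene lists were chosen with earlier results of these data known. Named genes are the 7, CTCF, the 3 genes most like each in level, and neighbours or listed genes called in the CTCF contrast, of which there were none. Others, such as LENG8-AS1, NEFH, EEF1A1 and HOXA-AS2, were named after their values were seen. The sgRNA sequences were not analysed here.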

Additional observations from a re-analysis of the deposited data

Results flagged for a closer look

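The 7 genes with CTCF sgRNAs were not examined here, since those values chose the genes. Of 41 other groups of sgRNAs (each of the 7 genes and CTCF with each target that had at least 4 sgRNAs), 8 held 1 sgRNA that stood apart from the rest of its group by Dixon's criterion, which flags about 1 group in 20 by chance. CTNNB1 sgRNA 6 stood apart for EEF1A2 (389 CPM) and CDC42EP5 (126 CPM). JUN sgRNAs stood apart for EEF1A2 (397 CPM, sgRNA 3), PCOTH (0.98 CPM, sgRNA 1), GNG10 (179 CPM, sgRNA 5) and the CTCF transcript (38.1 CPM, sgRNA 6). PGAM1 sgRNAs did so for PCOTH (1.24 CPM, sgRNA 4) and the CTCF transcript (64.0 CPM, sgRNA 1). Both PCOTH values rested on 2 UMIs, in groups otherwise at 0 or 1 UMI, where that chance rate does not hold. Depth and cell number were not tested as a source of these values. CTNNB1 sgRNA 6 and PGAM1 sgRNA 1 had 32 and 37 cells.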

How the results depend on the processing

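The direction of all 7 genes with CTCF sgRNAs was kept in every edgeR setting that gave a value, including each sgRNA left out in turn. That direction was not checked with DESeq2. The cells left out of the sums for few sgRNA UMIs were not fitted. In them BASP1 stood higher with CTCF than with Non-Targeting sgRNAs, at 97.0 against 93.2 CPM, with overlapping counting intervals. SYCE3 and PCOTH failed the low-count filter, and gave no value, with the target and controls alone and when mitochondrial UMIs were held to 10% of a cell. PCOTH also failed it under the looser sgRNA rule and without CTCF sgRNA 2 or 3. For the other 5 genes with the other targets, none of 25 pairs passed in the settings that fitted all of them. None passed of the 23 with an adjusted p from DESeq2, or of the 20 fitted under that mitochondrial limit, where MYC had no fit. The log2 fold change of SYCE3 with JUN sgRNAs turned to -0.22 under the stricter sgRNA rule (at least 10 UMIs and 90%). The cause of the changes below was not tested.

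Genes called, which give the background, moved as follows. In cells with at most 10% mitochondrial UMIs, 0 were called with CTCF, 64 with ATF4, 21 with PGAM1, 0 with CTNNB1 and 0 with JUN sgRNAs. Under the stricter rule 0 were called with CTCF, 94 with ATF4, 26 with PGAM1, 1 with MYC, 2 with CTNNB1 and 0 with JUN. With the target and controls alone these counts were 0, 308, 76, 51, 6 and 4. Without the low-count filter, 37 were called with CTCF, 91 with PGAM1, 5 with CTNNB1 and 15 with JUN. DESeq2 called 0 with CTCF, 68 with MYC and 0 with JUN, and the looser rule (at least 3 UMIs and 60%) gave 92 with MYC and 0 with JUN. Leaving out 1 sgRNA gave 0 to 24 with CTCF, 133 to 234 with ATF4, 19 to 36 with PGAM1, 4 to 39 with MYC, 1 to 2 with CTNNB1 and 0 to 3 with JUN. Among the controls, Non-Targeting sgRNA 1 mattered most often: without it, 0, 133, 19, 18, 2 and 0 were called with CTCF, ATF4, PGAM1, MYC, CTNNB1 and JUN. PGAM1 gave 28 without Non-Targeting sgRNA 3 and 21 without its own sgRNA 3. MYC gave 19 and 20 without Non-Targeting sgRNAs 2 and 3, and 4 and 8 without MYC sgRNAs 2 and 4, each of which leaves a lone MYC sgRNA assumed to vary like the other groups. JUN gave 0 and 2 without Non-Targeting sgRNAs 2 and 4, and 3 without JUN sgRNA 6.

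The difference in the GNG10 share of cells, 12.6 percentage points, was 5.36 when thinned to 8000 UMIs and 5.05 without thinning. Over thinning to 3000 or 8000 UMIs, no thinning and the cells with 1 to 4 sgRNA UMIs, the difference ran from 4.33 to 14.8 points for TTYH1, 6.01 to 14.4 for SYCE3, 2.02 to 7.66 for PCOTH, -12.1 to -4.99 for EEF1A2, -12.5 to -5.25 for CDC42EP5 and -9.91 to -2.83 for BASP1, with no change of sign. sgRNAs with few cells limit precision: 1 UMI was worth 1.60 CPM with CTCF sgRNA 3. No paired analysis was possible because the numbers only name sgRNAs of different sequence within 1 culture.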

Other observations

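MYC sgRNAs 1 and 3 had 10 and 16 cells and entered no comparison. EEF1A2 stood at 475 CPM (exact 95% Poisson interval 354 to 624) with MYC sgRNA 1 and 324 CPM (247 to 418) with sgRNA 3. GNG10 stood at 177 CPM (107 to 276) and 192 CPM (134 to 268), and BASP1 at 130.4 CPM (71.3 to 219) and 132 CPM (84.5 to 196). SYCE3 had 0 and 1 UMI, PCOTH had 0 UMIs with both, and TTYH1 had 3 and 2 UMIs.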
